A study of Danio rerio with 4 samples.

Results

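The nuclear genes of oxidative phosphorylation were taken as every feature whose symbol starts with nduf, sdh, uqcr, cox4, cox5, cox6, cox7, cox8 or atp5, without regard to letter case, which gave 108 of the 31466 features in the deposited gene table. By symbol, 43 of them encode subunits of complex I, 5 of complex II, 8 of complex III, 20 of complex IV and 17 of complex V. The other members are 8 complex I assembly factors, 4 complex II assembly factors and 3 factors of complex V, namely the inhibitors atp5if1a and atp5if1b and atp5s, which is no subunit. They were measured as UMI counts of single cells from adult zebrafish hearts of the AB genotype, in 2 libraries taken 6 h after sham injury (6 hps) and 2 libraries taken 6 h after cryoinjury (6 hpci). Per the study's methods, all fish of both groups had received an intrathoracic injection of the RNA label 4sU before the operation and morphine in the water after it. In sham injury the pericardium was opened without touching the ventricle with the cryoprobe. Each library pooled several hearts, and cells were fixed in methanol and treated with iodoacetamide. The counts add labeled and unlabeled RNA. Each group is therefore 2 pools, and p-values between the groups measure the spread between such pools. P-values between classes measure how class differences vary from library to library, with library as a covariate.

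Complexes I to IV pass electrons from NADH and succinate to oxygen and, except for complex II, pump protons across the inner mitochondrial membrane. Complex V, the ATP synthase, uses the resulting gradient to make ATP, on which the beating heart depends. Most subunits are encoded in the nucleus, and several complex IV subunits exist as paralogs. In mammals COX6A2 and COX7A1, and in some species COX8B, are the forms of heart and skeletal muscle. COX6A1, COX7A2 and COX8A are found in most tissues.

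Libraries held 86891164 to 136777379 UMIs in 15971 to 23000 barcodes. Of all 78127 barcodes, 55075 passed limits of 500 UMIs, 200 genes and 50% mitochondrial UMIs, and 31198 of these fell into 9 classes that were gated by marker genes and held at least 30 cells in each library. The classes were ventricular (16992 cells), atrial (6388), endothelial or endocardial (2343), macrophage (932), neutrophil (435), fibroblast (754), epicardial (737), smooth muscle or mural (607) and erythrocyte (2010), each to be read as cells like that type. Another 13058 cardiomyocytes could not be assigned to a chamber. No class was chosen with a member gene. In the 6 classes gated by a list of non-muscle or mural markers the own markers were higher than in all other classes. The macrophage list, for example, was at 999 to 2996 CPM against at most 135 CPM. CPM is the UMI count scaled to 1000000 UMIs of the class, leaving out the mitochondrial genome and the haemoglobin genes. The same lists set the gates, so this order was fixed in advance and is no check of identity. Muscle RNA was present in all of these classes: the summed level of the 9 features of the cardiomyocyte marker list was 8.86% to 27.6% of that in cardiomyocytes. In cryoinjured replicate 2, 46.4% of barcodes exceeded the mitochondrial limit against 15.7% to 20.01% in the other libraries, and muscle RNA in the other classes was lowest. Pairs of libraries shared 84 to 293 barcodes.

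Transcripts of the 108 genes were far more abundant in cardiomyocytes than in any other class. In ventricular cardiomyocytes the summed level was 13.7% and 12.7% of nuclear UMIs after sham and 16.0% and 13.6% after cryoinjury. In atrial cardiomyocytes it was 14.5% and 11.7% after sham and 14.6% and 12.6% after cryoinjury. The chambers thus overlapped, with a ventricular over atrial ratio of 0.947 to 1.097 within a library. Every other class lay lower in all 4 libraries, from 1.73% in epicardial cells of cryoinjured replicate 2 to 5.19% in neutrophils of cryoinjured replicate 1. The ratio of cardiomyocytes to the mean of 5 non-muscle classes (endothelial, macrophage, neutrophil, fibroblast and epicardial cells) was 3.69 ± 0.726 (SD, n = 4 libraries), with 3.26 to 3.38 in 3 libraries and 4.78 in cryoinjured replicate 2.

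**Figure D1:**
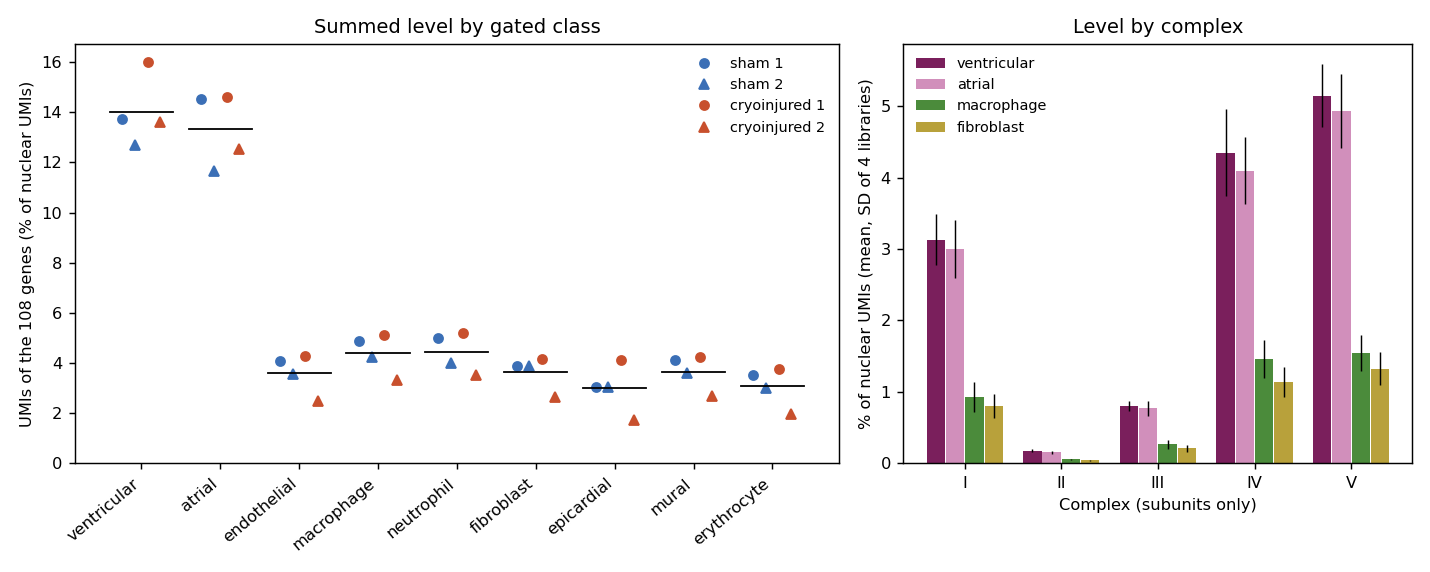
Left, UMIs of the 108 genes as a percentage of nuclear UMIs (y axis) in each gated class (x axis), 1 point per library with a line at the mean of 4. Right, the same percentage for the subunits of each complex in 4 classes, as mean and SD of 4 libraries. Cardiomyocytes stood at 11.7% to 16.0% and all other classes at 1.73% to 5.19%, while complex V and complex IV took the largest shares.

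Within the members, complex V was the most abundant in ventricular cardiomyocytes, at 5.15% ± 0.444 of nuclear UMIs (SD, n = 4), followed by complex IV at 4.35% ± 0.609, complex I at 3.13% ± 0.355, complex III at 0.799% ± 0.0730 and complex II at 0.176% ± 0.0168. With complexes assigned by symbol, the means of the 4 libraries had this order in all 9 classes. Complex IV was above complex V in 3 of the values per library, namely in mural cells of sham replicate 2 (1.27% against 1.25%) and macrophages (1.759% against 1.756%) and neutrophils (1.79% against 1.77%) of cryoinjured replicate 1. The proportions among the complexes were also close, since complex I made up 20.6% to 22.5% of member UMIs as a class mean, complex IV 30.7% to 33.9% and complex V 34.3% to 37.5%. UMIs of a 3' library count molecules, so these levels carry no correction for transcript length. By symbol, ndufa4 and its paralogs were counted under complex I, and the sums were not recomputed with them in complex IV. The order of complexes IV and V and the proportions therefore rest on that assignment.

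This RNA was spread over many members. Of the 108 members, 47 reached 1000 CPM in ventricular cardiomyocytes, 39 lay between 100 and 1000 CPM and 22 lay below 100 CPM, and the 10 most abundant gave 32.1% of member UMIs. The highest was atp5mc3b, which encodes the membrane ring subunit c of complex V, at 7695 and 6721 CPM after sham and 8998 and 7984 CPM after cryoinjury. Next in complex V were atp5l and atp5meb, which encode small membrane subunits (4720 and 3795 CPM as means). Complex IV was led by cox7a1, cox7c and cox6a2 (4679, 4420 and 4142 CPM) and complex I by ndufa4l, ndufb7 and ndufb8 (4297, 1819 and 1461 CPM). The product of NDUFA4, to which ndufa4l is assigned in a second symbol table, is now placed in complex IV by structural work. Complex III was led by uqcrq, uqcr10 and uqcrh (2191, 1492 and 1460 CPM), which encode small supernumerary subunits. In complex II the iron-sulfur subunit gene sdhb was highest at 713 CPM, then the membrane anchor genes sdhc at 629 CPM and sdhdb at 236 CPM, while the flavoprotein gene sdha was at 172 CPM.

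Several members were hardly counted. ndufs1, whose product is a core subunit of complex I, had 0.613 to 0.803 CPM in the ventricular cells of the 4 libraries, far below the other core subunit genes ndufv1 (227 CPM) and ndufs7 (734 CPM). NDUFB1 had 1.05 CPM over all ventricular cells, ndufa4l2a 0.23 and ndufa9b 0.115. For ndufs8b 1 UMI was counted in all 9 classes, and for ndufa4l2b none, which allows a level of up to 0.0225 CPM, counting error only. These 6 genes and the low assembly factor genes sdhaf1 and ndufaf7 did not pass the filter on low counts in the fit over all classes, which left 100 members.

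The contrast between cardiomyocytes (mean of ventricular and atrial) and the 5 non-muscle classes asked which members follow the muscle cell. With edgeR's quasi-likelihood test and Benjamini-Hochberg adjustment over 6024 genes, 96 of 100 members were higher in cardiomyocytes, where 35.4% of all genes were, and 3 were lower, where 38.0% of all genes were. The median log2 fold change of the members was 1.99, against −0.15 for all genes tested. The genes tested had passed a filter on low counts but were not matched to the level of the members. All 37 complex I subunits, 5 complex II, 8 complex III and 17 complex V subunits that were tested rose, with log2 fold changes of 1.47 (atp5mea) to 2.46 (uqcrc1). All 13 assembly and regulatory factors tested rose as well, by a median of 1.71 against 2.01 for the subunits. Complex IV differed from this pattern, as 16 of its 20 genes were higher and 3 were lower. The 4 highest members were cox5b2 (2.61 ± 0.11, SE), cox4i1l (2.49 ± 0.13), uqcrc1, a core subunit of complex III (2.46 ± 0.12), and cox6a2 (2.43 ± 0.11), with edgeR adjusted p from 8.148e-25 to 4.135e-27. The 3 lower members were cox4i2, cox6a1 and COX7A2 (1 of many), all of complex IV. Leaving out any 1 library gave 95 or 96 higher and 2 or 3 lower members.

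Because every other class held muscle RNA, each member was also set against that RNA. Its level in a class relative to all gated cardiomyocytes of the same library was divided by the same relative level of the summed muscle markers, so that 1 is the level carried with muscle RNA. Over the 96 members that reached 10 CPM in the cardiomyocytes of every library, the median of this ratio was 1.25 in endothelial cells, 1.22 in fibroblasts, 1.24 in epicardial cells, 1.20 in mural cells, 1.15 in erythrocytes, 1.52 in neutrophils and 1.69 in macrophages. The single marker genes ranged from 0.586 to 1.98 in macrophages, and 72 of the 96 members lay within that range there, as did 84 in endothelial cells and 92 in fibroblasts. For most members the mean ratio outside cardiomyocytes therefore lay within the range of the single marker genes. That range is wide, all class medians were above 1, and the same markers also set the muscle limits of the gates. How much of a member's level was carried with muscle RNA was thus not determined.

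**Figure D2:**
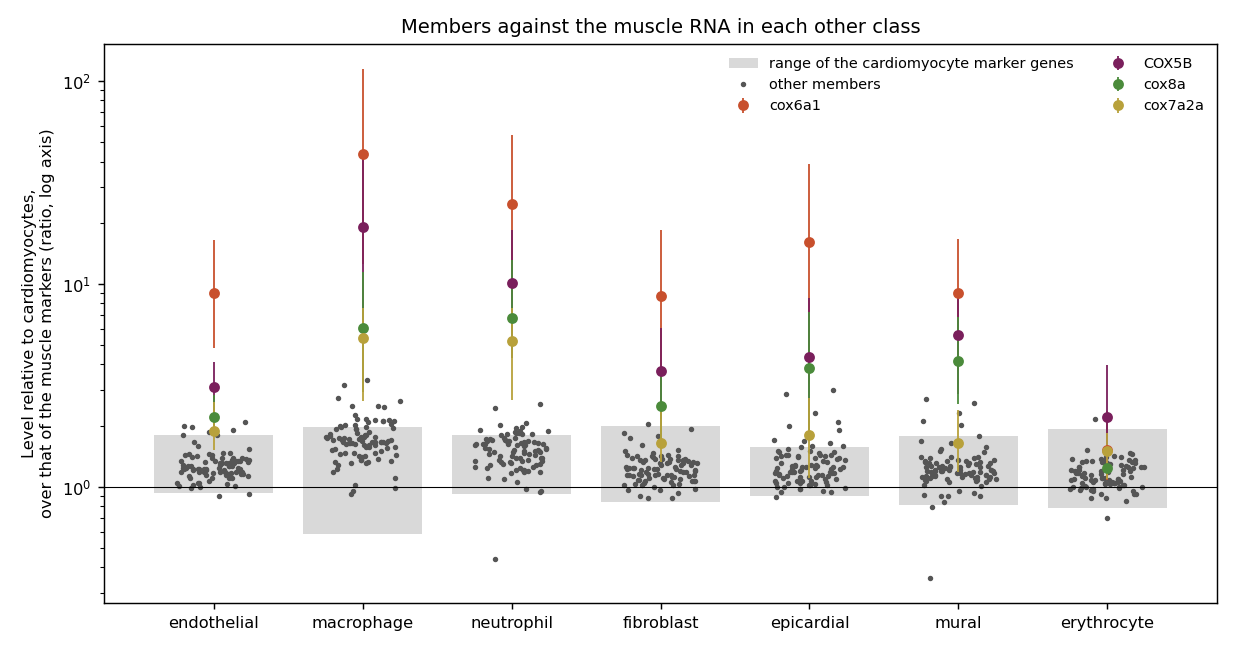
Ratio of a gene's level in a class to its level in cardiomyocytes, divided by the same ratio of the summed cardiomyocyte markers (log y axis), in 7 classes (x axis). Small points are means of 4 libraries, coloured points with bars are means with the lowest and highest library, and the grey bands span the single marker genes. Among the 96 members that passed the limit of 10 CPM, cox6a1 stood highest in all classes but erythrocytes. It was at 43.7 in macrophages, followed there by COX5B at 19.01.

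Among the 96 members with this ratio, a small group of complex IV genes stood above the muscle RNA. Members rare in cardiomyocytes, such as cox4i2, were left out by the limit of 10 CPM and have no ratio. cox6a1 (ENSDARG00000022438) had a ratio of 12.5 to 114 in macrophages and 8.33 to 54.2 in neutrophils. COX5B (ENSDARG00000015978) reached 6.60 to 45.6 in macrophages, cox8a (ENSDARG00000095273) 2.94 to 11.4 and cox7a2a (ENSDARG00000053217) 2.64 to 7.55. By contrast, cox6a2, cox7a1 and cox5b2 had mean ratios of 1.02, 0.99 and 0.921 in macrophages. Outside complex IV, the complex I assembly factor gene ndufaf3 and the ATP synthase inhibitor gene atp5if1a were highest in epicardial cells, with mean ratios of 2.98 and 2.87. Both ranges, 2.23 to 4.71 and 1.87 to 3.80, lay above the marker genes there, which reached 1.57.

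The cox6a pair differed between cell types. The general form cox6a1 was at 117, 116, 161 and 58.8 CPM in ventricular cardiomyocytes (sham 1 and 2, cryoinjured 1 and 2) and at 891, 607, 555 and 847 CPM in macrophages. The 2 sets of libraries did not overlap. Neutrophils (390 to 804 CPM) lay with the macrophages, and epicardial cells (142 to 286 CPM) overlapped with ventricular cells only in cryoinjured replicate 1. cox6a1 was lower in cardiomyocytes than in non-muscle classes, with a log2 fold change of −1.33 ± 0.15 (SE, edgeR adjusted p = 2.94e-11). cox6a2 (ENSDARG00000054588) ran the other way, from 3364 to 5634 CPM in ventricular cells to 452 to 1353 CPM in macrophages. Its share of cox6a UMIs was 97.4% ± 0.702 (SD, n = 4) in ventricular and 97.2% ± 1.16 in atrial cardiomyocytes, 80.6% ± 3.86 in endothelial cells, 67.2% ± 11.4 in neutrophils and 52.3% ± 15.7 in macrophages. In erythrocytes it was 96.3% ± 0.539. Muscle markers there were at 13.5% to 24.5% of their cardiomyocyte level. Of 96 members, 93 lay within the range of the marker genes in erythrocytes, and 0 lay above it in all 4 libraries. The part of muscle RNA in the erythrocyte share was not tested. A second symbol table pairs the identifier of cox6a2 with COX6A1, so its name as the muscle form rests on the deposited symbol.

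The macrophage share varied with the library. After sham it was 45.4% and 58.2%, and after cryoinjury 70.9% and 34.8%, while the muscle markers in the same cells were at 23.2%, 19.6%, 25.5% and 11.2% of their cardiomyocyte level. When only barcodes with less than 3% in place of less than 6% of UMIs from muscle markers were taken, a choice made after seeing the data, the cox6a2 share in macrophages fell to 36.6% and that of cox7a1 to 44.9%.

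The cox7a genes had the same order with smaller differences. cox7a1 (ENSDARG00000069464) made up 82.5% ± 2.75 of cox7a UMIs in ventricular cells, 79.6% ± 3.66 in atrial cells, 60.8% ± 9.95 in neutrophils and 56.7% ± 8.36 in macrophages. cox7a2a, the general form, made up 7.67% ± 2.47 in ventricular cells and 30.01% ± 6.87 in macrophages. In CPM, cox7a2a in ventricular cells followed the replicate number rather than the group, at 521 and 746 in the replicates numbered 1 and 262 and 286 in those numbered 2. The same split was seen in atrial cells, at 685 and 645 against 321 and 352 CPM. cox7a3, whose identifier a second table names COX7A2L after a factor of respiratory supercomplexes, stayed at 9.35% to 12.6% of the set as a class mean. COX7A2 (1 of many) did not exceed 0.73% as a class mean and was lower in cardiomyocytes by a log2 fold change of −1.15 ± 0.33 (edgeR adjusted p = 0.001716).

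Of the cox8 pair, cox8b (ENSDARG00000097209) gave 83.3% ± 2.09 of UMIs in ventricular and 85.0% ± 3.27 in atrial cells, against 53.8% ± 10.4 in neutrophils and 54.8% ± 11.9 in macrophages. The general form cox8a reached similar levels in leukocytes and in muscle, with 507 to 738 CPM in ventricular cells, 447 to 646 CPM in macrophages and 642 to 931 CPM in neutrophils. In fibroblasts it was at 261 to 350 CPM. cox8a was higher in cardiomyocytes than in the mean of non-muscle classes by a log2 fold change of 0.59 ± 0.12 (edgeR adjusted p = 9.695e-06), a call that DESeq2 did not make (0.11, adjusted p = 0.3964).

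The paralogs cox5b2 (ENSDARG00000068738) and COX5B, both of which a second table names COX5B, behaved like a further pair of this kind. cox5b2 held 96.3% ± 1.07 of their UMIs in ventricular, 90.5% ± 2.05 in atrial, 60.3% ± 13.1 in neutrophil and 49.0% ± 16.6 in macrophage cells. COX5B was at 189, 111, 184 and 92.05 CPM in ventricular cells and 680, 535, 486 and 833 CPM in macrophages, again without overlap. Its log2 fold change between cardiomyocytes and non-muscle classes was −0.07 ± 0.14 (edgeR adjusted p = 0.6713). How reads of close paralogs were divided by the counting was not tested.

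**Figure D3:**
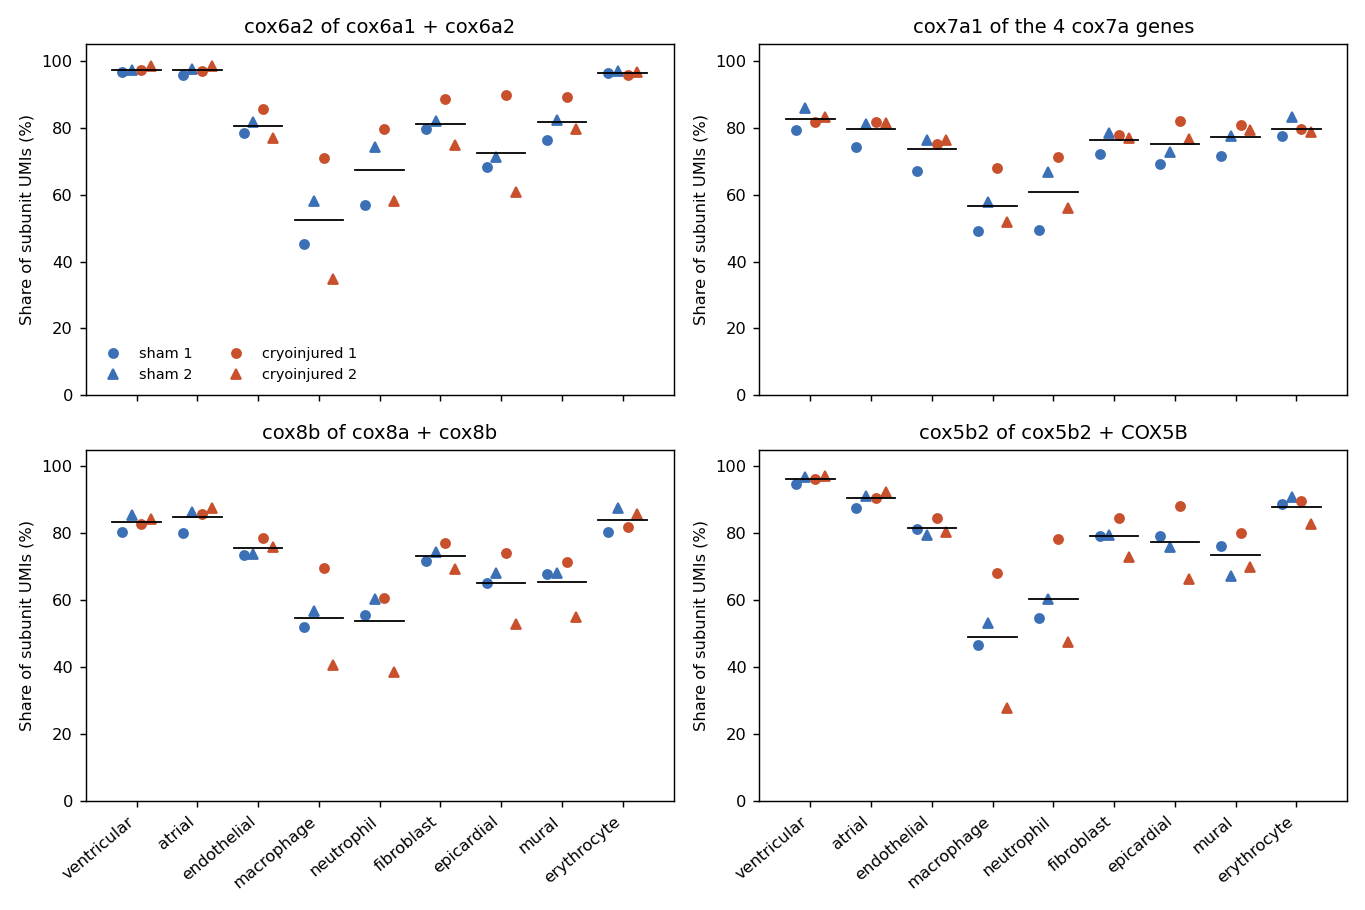
Share of a subunit's UMIs (y axis, %) that came from cox6a2, cox7a1, cox8b or cox5b2 in each class (x axis), 1 point per library with a line at the mean of 4. Cardiomyocytes and erythrocytes were highest for cox6a2 and cox5b2, macrophages and neutrophils lowest, and cryoinjured replicate 1 lay above cryoinjured replicate 2 in both leukocyte classes. Erythrocytes held muscle markers at 13.5% to 24.5% of the cardiomyocyte level.

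Among the cox4 genes, which encode the regulatory subunit that binds ATP, cox4i1l took 39.0% ± 5.84 in ventricular cells, 28.1% ± 6.25 in atrial cells and 19.2% ± 5.96 in macrophages, and cox4i1 nearly all of the rest. cox4i2, whose mammalian counterpart is known from the lung, was at 0.745 to 2.61 CPM in ventricular cells. It reached 25.8, 45.4, 34.99 and 97.8 CPM in fibroblasts and 7.33, 33.4, 14.2 and 62.5 CPM in epicardial cells. In mural cells it was at 7.88 to 26.5 CPM. cox4i2 was lower in cardiomyocytes than in non-muscle classes by a log2 fold change of −2.62 ± 0.30 (edgeR adjusted p = 1.437e-10).

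Most of the remaining paralogs varied less between cell types. The ATP synthase inhibitors were an exception. There atp5if1a rose from 30.6% ± 3.11 of the pair in ventricular cells to 54.5% ± 7.04 in epicardial cells, with atp5if1b making up the rest. For subunit e of complex V, atp5mea was 22.3% ± 1.65 in ventricular, 22.4% ± 0.775 in atrial and 33.8% ± 4.05 in epicardial cells. The subunit c genes atp5mc1, atp5mc3a and atp5mc3b kept 24.9% to 29.6%, 8.20% to 10.3% and 60.3% to 66.0% of their set as class means. cox5aa held 66.2% to 75.3% against cox5ab, and uqcrc2b 54.8% to 63.2% against uqcrc2a. ndufab1b, which encodes the acyl carrier protein of complex I, held 57.5% to 64.0% against ndufab1a. In complex II sdhdb held 93.9% to 98.9% against sdhda, and ndufa9a and ndufs8a had nearly all UMIs of their pairs.

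Next, the chambers of the heart were compared. In the fit over all classes with library as a covariate, 5 members were higher in ventricular than in atrial cardiomyocytes, where 5.69% of all 6024 genes were, and 1 was lower, where 7.74% were. By median, members had a log2 fold change of 0.28 against 0.02 for all genes, and 91 of 100 members were above 0. With library sizes alone in place of TMM factors the medians were 0.14 and −0.13, and 81 of 100 members were above 0. The share of all genes above 0 was not counted. A change of scaling shifts all genes nearly alike, so the similar gaps of 0.26 to 0.27 are no test of it. The number of calls depended on the tool. DESeq2 called 39 of 107 members higher (36.4%, against 2.21% of all 21981 genes) and 1 lower (0.935% against 2.66%). It was run without the filter on low counts, so these shares of all genes include many rare genes that can hardly be called. They are not matched to the level of the members, which holds for every DESeq2 share given here. The shares of all genes called by edgeR rest on a filter on low counts alone and are not matched for level either.

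Of the members higher in ventricular cells, ndufa4 (ENSDARG00000056108) had the smallest adjusted p. It was at 1068, 1197, 1312 and 1741 CPM in ventricular and 635, 772, 713 and 854 CPM in atrial cells. Ventricular cells were higher in all 4 libraries, with a log2 fold change of 1.04 ± 0.22 (edgeR adjusted p = 0.0004335). Its paralog ndufa4l did not pass the test (0.19 ± 0.18, adjusted p = 0.5683), and ndufa4 made up 23.6% ± 5.01 of the set in ventricular and 14.7% ± 2.48 in atrial cells. cox4i1l was also higher in ventricular cells (0.82 ± 0.23, adjusted p = 0.009337), at 1610 to 3119 CPM against 993 to 1868 CPM. cox6b1, a complex IV subunit gene, was at 1248 to 1600 CPM against 774 to 1059 CPM without overlap (0.80 ± 0.23, adjusted p = 0.01273). Without cryoinjured replicate 2 its adjusted p was 0.06447. The 2 weakest calls were cox5ab (0.60 ± 0.21, adjusted p = 0.04336) and atp5pd, a stalk subunit gene of complex V (0.55 ± 0.19, adjusted p = 0.04533). Both were lost whenever any of the 4 libraries was left out.

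COX5B was the member lower in ventricular cells. It stood at 189, 111, 184 and 92.05 CPM there and at 535, 297, 436 and 250 CPM in atrial cells, which do not overlap, with a log2 fold change of −1.21 ± 0.23 (edgeR adjusted p = 9.198e-05). Summed markers of macrophages, the class with the most COX5B, were at 2.31 to 30.3 CPM in atrial and 4.24 to 37.2 CPM in ventricular cells, those of neutrophils at 71.5 to 128 and 54.7 to 145 CPM, and those of mural cells at 137 to 693 and 82.3 to 671 CPM. Median depth was 3469 to 6677 UMIs per atrial cell against 2266 to 3261 per ventricular cell. The part of these cells and of depth in the result was not tested. The muscle forms cox6a2 (−0.02 ± 0.20), cox7a1 (0.49 ± 0.21) and cox8b (0.18 ± 0.20) did not pass the test between chambers, with adjusted p of 0.9645, 0.1119 and 0.6163.

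**Figure D4:**
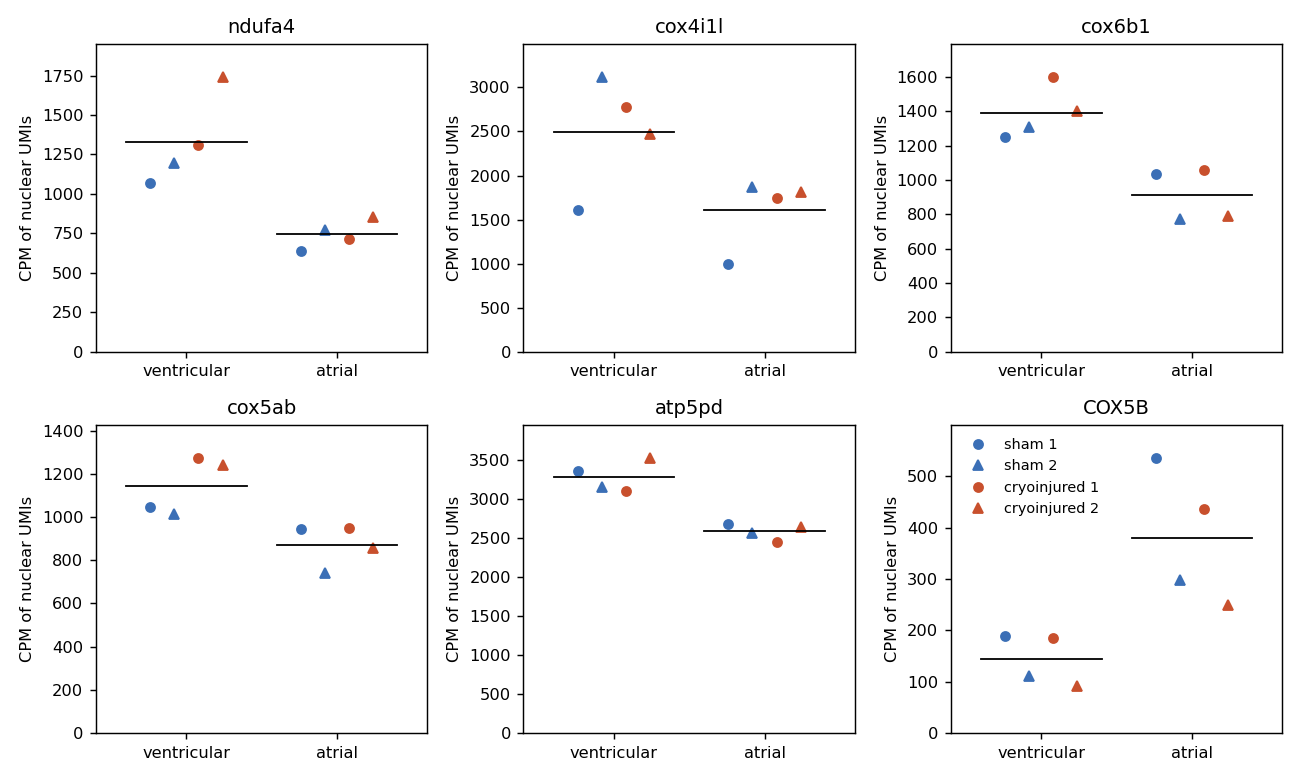
Level (y axis, CPM of nuclear UMIs, from 0) of the 6 members called between chambers in ventricular and atrial cardiomyocytes (x axis), 1 point per library with a line at the mean of 4. ndufa4, cox6b1, cox5ab, atp5pd and cox4i1l had the higher mean in ventricular cells, and COX5B was at 92.05 to 189 CPM there against 250 to 535 CPM in atrial cells.

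Mural cells, the other muscle cell of the heart, did not share the high level of cardiomyocytes. Their summed level was 0.963 ± 0.0261 times the mean of the non-muscle classes (SD, n = 4). In the test 2 members were higher in mural cells, where 10.0% of all genes were, and none was lower, where 5.54% were, with 9 of 100 members at an unadjusted p under 0.05. These were cox6b1 (0.84 ± 0.17, edgeR adjusted p = 0.0001925) and the assembly factor gene ndufaf3 (0.65 ± 0.19, adjusted p = 0.009374). When sham replicate 2 was left out, ndufaf3 had an adjusted p of 0.0739, and when cryoinjured replicate 1 was left out, 0.08823, so that it was called in neither case. cox6b1 was at 859 CPM in sham replicate 2 and at 299 to 448 CPM in the other libraries, and without that library its log2 fold change was 0.50 (adjusted p = 0.03897). With library sizes alone 2 members were higher and 1 was lower (8.12% and 8.28% of all genes). DESeq2 called 4 of 107 higher and 1 lower (2.86% and 1.56% of all genes). Mural cells numbered 45 in sham replicate 1 and 111 to 271 in the other libraries.

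Cryoinjury was compared with sham injury in each class on its own. With edgeR's quasi-likelihood test no member was called in any of the 9 classes, and neither was any gene of the table, so that 0% of all genes were called higher and 0% lower. DESeq2 called no member either, while of all genes it called 10 higher in ventricular cells and 8 higher and 1 lower in atrial cells. For any single value, the lowest two-sided p that exact permutation of 2 against 2 libraries allows is 0.33. At an unadjusted p under 0.05 there were 38 of 103 members in ventricular cells (36.9%, against 4.93% of all 8734 genes, not matched for level). In atrial cells there were 10 of 102 (9.80% against 9.37%), and in the other 7 classes 0. The share of all genes there was 3.31% in endothelial, 3.64% in macrophage, 3.94% in neutrophil, 6.36% in erythrocyte, 7.27% in fibroblast, 8.59% in epicardial and 14.8% in mural cells. The counts of members in cardiomyocytes depended on the TMM factors. With library sizes alone there were 0 of 103 in ventricular cells (against 8.15% of all genes) and 0 of 102 in atrial cells (against 21.5%). Leaving out a library lowered the ventricular count each time and moved the atrial count both up and down. With the replicate number as a block, 31 of 102 atrial members were at an unadjusted p under 0.05 (30.4%, against 17.4% of all genes), and their smallest edgeR adjusted p was 0.0502.

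In cardiomyocytes the median of the members lay above that of all genes. All genes tested were not matched to the level of the members. In ventricular cells they numbered 8734, while 927 genes reached 50 CPM there. Whether other abundant genes shared this difference was not tested. In ventricular cells 99 of 103 members had a log2 fold change above 0, with a median of 0.58 against −0.02 for all genes. In atrial cells 96 of 102 did, with a median of 0.55 against −0.03. These signs depended on the scaling, since with library sizes alone 84 of 103 and 44 of 102 were above 0. The share of all genes above 0 was not counted, and members of the same libraries are not replicates. With library sizes alone the median of all ventricular genes was −0.45 and that of the members 0.16. The gap of 0.60 was the same with TMM factors, as a change of scaling shifts all genes nearly alike. In atrial cells library sizes alone gave −0.62 and −0.02, so the members were above 0 only relative to other genes. Relative to all genes, the gap was 0.45 in epicardial cells, 0.30 in endothelial cells, 0.27 in macrophages, 0.15 in mural cells, 0.06 in fibroblasts, −0.02 in erythrocytes and −0.15 in neutrophils. When each library was left out in turn the gap stayed between 0.43 and 0.78 in ventricular and between 0.32 and 0.97 in atrial cells. In endothelial, epicardial and macrophage cells, fibroblasts and neutrophils the gap was near or below 0 when some library was left out. In epicardial cells it was 0.015 without cryoinjured replicate 1 and 1.04 without cryoinjured replicate 2, in macrophages 0.027 and 0.61, in mural cells 0.088 and 0.81, in fibroblasts −0.098 and 0.535 and in neutrophils −0.46 and 0.25. In endothelial cells it was 0.030 without sham replicate 2 and 0.64 without sham replicate 1, and in macrophages it was −0.0056 without sham replicate 2.

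**Figure D5:**
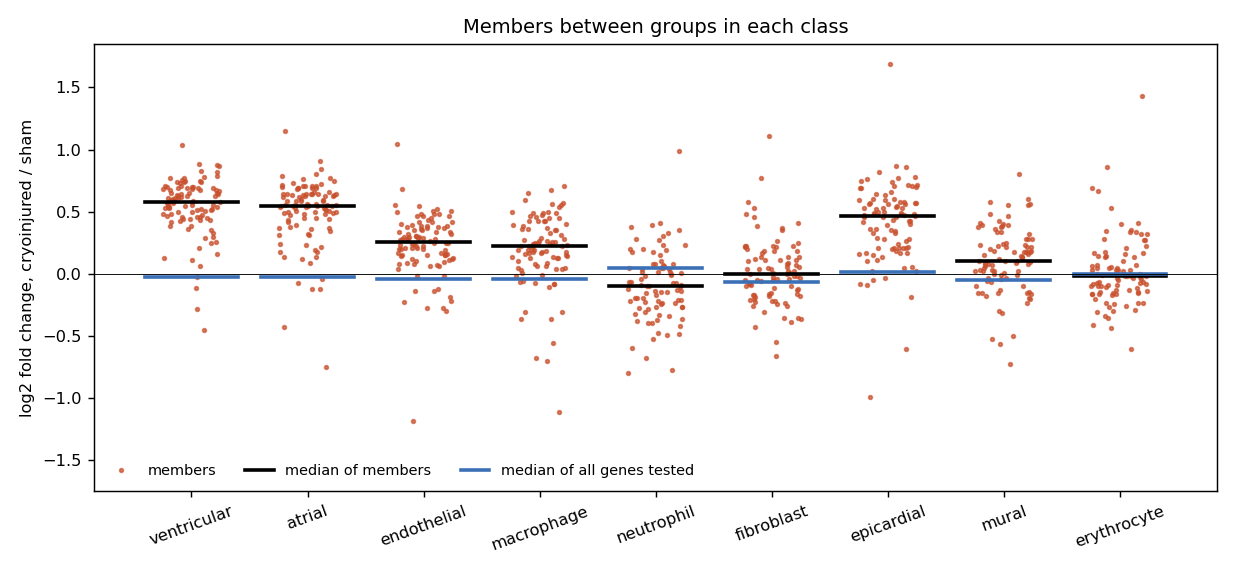
log2 fold change of cryoinjured over sham for each tested member (y axis) in each class (x axis), with the medians of the members and of all genes tested. No point is significant after adjustment, the medians of the members were 0.58 in ventricular and 0.55 in atrial cells, and those of all genes lay between −0.06 and 0.05.

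In summed level the groups overlapped in all 9 classes. The log2 ratio of cryoinjured over sham was 0.17 in ventricular, 0.05 in atrial and −0.10 in macrophage cells, where the pooled SD of the libraries on the same scale was 0.13, 0.19 and 0.33. By complex, complex V in ventricular cells was at 5.17% and 4.56% of nuclear UMIs after sham and 5.63% and 5.25% after cryoinjury, and complex II at 0.174% and 0.156% against 0.197% and 0.175%, both without overlap but with gaps smaller than the distance between the sham libraries. Of the 90 members at 50 CPM or more in ventricular cells, 25 were higher in both cryoinjured than in both sham libraries, among them ndufs3, uqcrc1, uqcrc2a and atp5mc3b. Of all genes at that level, 11.2% did so. 1 member, sdhaf2, was lower in both, as were 13.6% of all genes. In atrial cells 2 of 89 members were higher in both (10.9% of all genes) and 3 lower in both (22.3%), and in macrophages 1 of 86 was higher (7.85%) and 9 were lower (29.1%).

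The largest fitted difference in cardiomyocytes was that of sdhda, a rare membrane anchor gene of complex II (1.04 ± 0.48 in ventricular and 1.15 ± 0.44 in atrial cells), which had only 4.55 to 13.2 CPM and did not pass the test. Among members at 50 CPM or more, the largest differences in ventricular cells were those of ndufv3, a small complex I subunit gene (0.89 ± 0.30), ndufa4 (0.88 ± 0.29) and ndufa10 (0.87 ± 0.34), all with an edgeR adjusted p of 0.7888. ndufv3 was at 265 and 282 CPM after sham and 407 and 349 CPM after cryoinjury, without overlap. In atrial cells cox4i1l (0.90 ± 0.33), ndufv3 (0.84 ± 0.34) and ndufc2 (0.79 ± 0.34) had an adjusted p of 0.5191. The level of cox4i1l overlapped between the groups there, at 993 and 1868 CPM after sham and 1750 and 1817 CPM after cryoinjury. In macrophages cox4i1l, sdha and ndufb9 came first at that level (0.71 ± 0.50, 0.67 ± 0.52 and 0.65 ± 0.45, adjusted p = 0.9729), and all 3 overlapped.

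Assembly factors and subunits were then set side by side, and the difference between them was not tested. In ventricular cells the 88 subunit genes tested had a median log2 fold change of 0.60 and the 15 assembly and regulatory factors 0.36, and in atrial cells the medians were 0.55 for 87 and 0.18 for 15. In atrial cells the 8 complex I assembly factors summed to 0.0347% and 0.0282% of nuclear UMIs after sham and 0.0261% and 0.0280% after cryoinjury. Cryoinjured libraries were lower without overlap in 7 of the 9 classes, though by very little in several, and in neutrophils on 21 to 49 UMIs per library. All classes come from the same 4 libraries, so they are not repeats of each other. Of single genes at 50 CPM or more, 22.3% in atrial cells and 29.1% in macrophages were also lower without overlap. For the others of these classes that share was not counted. With TMM factors the median of the 8 complex I assembly factors in atrial cells was 0.07, against −0.03 for all genes. Of the 8 genes, 4 had a fitted log2 fold change above 0 in atrial cells, from −0.43 ± 0.47 for ndufaf4 to 0.72 ± 0.34 for ndufaf5, and none passed the test (edgeR adjusted p = 0.7297 and 0.5291 for these). cox4i2 in epicardial cells was singled out after its values were seen: its log2 fold change was 1.69 ± 0.88 (adjusted p = 0.5899), and it was called only when cryoinjured replicate 1 was left out (2.52 ± 0.54, adjusted p = 0.0003739), as it also was in erythrocytes (2.04 ± 0.62, adjusted p = 0.01494). In those fits the cryoinjured arm is 1 library, assumed to vary like the sham libraries, and over all genes they called 162 higher and 61 lower in epicardial cells and 133 higher and 21 lower in erythrocytes.

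Whether the change with cryoinjury differed between ventricular and atrial cells was tested as an interaction. The edgeR test called 0 of 103 members, with 0 at an unadjusted p under 0.05, against 0.0103% of 9726 genes called higher in ventricular cells and 0% lower. DESeq2 also called 0 members there. The median difference of the members was 0.04. It was −0.24 without sham replicate 1 and 0.18 without sham replicate 2, and the count at an unadjusted p under 0.05 rose in both cases.

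Of 49 further genes of the pathway outside the rule, 38 were tested between cardiomyocytes and non-muscle classes. Of these, 36 were higher, where 35.4% of all genes were, and 1 was lower, where 38.0% were. The highest were ckmt2b, a mitochondrial creatine kinase gene (2.64 ± 0.13, edgeR adjusted p = 5.149e-26), ttc19, which encodes a complex III assembly factor (2.52 ± 0.26), ckmt2a (2.30 ± 0.16) and cyc1, which encodes cytochrome c1 of complex III (2.26 ± 0.11). The lower gene was gabpa, a transcription factor of mitochondrial genes in mammals (−1.41 ± 0.27, adjusted p = 5.232e-06). Between chambers 3 of the 38 were higher in ventricular cells, where 5.69% of all genes were, and none was lower, where 7.74% were. They were ckmt2a (1.52 ± 0.25, edgeR adjusted p = 5.345e-06), tmem126a and cycsb, which encodes cytochrome c. Mural cells had more of the outer membrane channel genes vdac1 (1.70 ± 0.16, edgeR adjusted p = 8.278e-13) and vdac3 (0.89 ± 0.17) and of the ADP/ATP carrier gene slc25a5 (0.39 ± 0.14) than the non-muscle classes. There 3 of 38 were higher, against 10.0% of all genes, and none was lower, against 5.54%. Neither count is read as an excess of pathway genes. None of the further genes was called between cryoinjured and sham in any class, and neither was any other gene. Their median log2 fold changes were 0.44 for 44 genes in ventricular and 0.29 for 44 in atrial cells.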

How the data were processed

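UMI counts per gene and cell barcode were used as deposited. Per the labels, the authors made them with Cell Ranger 4.0.0 from 10x 3' libraries and summed labeled and unlabeled molecules in the counts used here. Labeled RNA was not analysed here. The members and gene lists were chosen with earlier results of these data known. Barcodes had at least 500 UMIs, 200 genes and at most 50% mitochondrial UMIs. A non-muscle barcode had at least 2 markers of 1 class and less than 6% of its nuclear UMIs from the cardiomyocyte markers, and a cardiomyocyte at least 8%. The markers of that class also had to reach at least 4 times their mean level in the library. This enrichment had to be at least 2 times that of any other class that passed. Cardiomyocytes with at least 5 UMIs of chamber markers were ventricular at 80% or more ventricular UMIs and atrial at 30% or less. Erythrocytes had at least 40% haemoglobin UMIs. Barcodes that passed the gates of several classes were left out, and no doublet caller was run.

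For each library and class the UMIs were added up and tested with edgeR 4.0.16 (TMM factors, quasi-likelihood test), with Benjamini-Hochberg adjustment over all genes tested and a threshold of 0.05. Cryoinjured and sham libraries were compared within each class, and classes were compared over all 36 sums with library as a covariate. SE was derived from the F statistic. Alternatives were DESeq2 1.42.0, library sizes alone, no filter on low counts, other mitochondrial and marker gates, removal of the 5% largest barcodes, each library left out and a replicate block. Named members were the largest changes at 50 CPM or more and the paralogs of each subunit. Values of 1 member that the rule names are not reported here. The functions were tested on simulated data.

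The study's sample table gives 1 operator per replicate number, so that the numbers pair sham and cryoinjured libraries. Deviations from the group means correlated between same-numbered libraries at 0.176 to 0.348 over all genes in 8 classes and at −0.145 in neutrophils.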

Additional observations from a re-analysis of the deposited data

How the results depend on the processing

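Over 67 results and 758 recomputed values, most kept their direction and their side of the threshold. With the replicate block 0 members were called between cryoinjured and sham in each of the 9 classes, as without it, although the pairing raised the calls over all genes to 71 higher and 59 lower in atrial and 13 higher and 2 lower in ventricular cells. The number of members higher in ventricular than in atrial cells was 39 with DESeq2 (36.4%, against 2.21% of all genes), 3 with a mitochondrial limit of 30% (3.03% against 3.59%), 10 with a muscle limit of 3% for the non-muscle classes, which was chosen after seeing the data (10 of 100, against 8.58%), and 2 to 3 when a library was left out (3.21% to 5.42% of all genes). Members higher in mural cells numbered 4 with DESeq2, with the 30% limit, with a stricter marker gate and without the largest barcodes. They numbered 6 without a mitochondrial limit. Members lower there numbered 1 with DESeq2, library sizes alone or the stricter gate and 2 without the largest barcodes. Shares of all genes under these other gates are not given here. The main edgeR fit with TMM factors called 10.0% of all genes higher and 5.54% lower in mural cells. These counts are therefore not read as an excess of members. Leaving out a library gave 0 to 1 members changed in epicardial cells and in erythrocytes, and a log2 ratio of the summed level in macrophages of −0.45 to 0.17. With the 3% limit the macrophage shares of cox6a2 and cox7a1 were 36.6% and 44.9%, and neutrophils and mural cells had too few cells. The cause of these differences was not tested.

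Some differences near 0 changed sign. Between chambers cox6a2 turned to 0.017 with DESeq2 and with the 3% limit, 0.084 without the filter and 0.041 without a mitochondrial limit, and lay between −0.058 and 0.086 when a library was left out. cox6a1 turned to 0.022 without the filter. Leaving out a library gave −0.18 to 0.13 for cox6a1 and −0.17 to 0.055 for ndufc2 between chambers, and −0.31 to 0.022 for ndufa9a in mural cells. Between cardiomyocytes and non-muscle classes COX5B turned to 0.080 with the 3% limit, 0.29 without the filter and 0.028 with the stricter gate, and lay between −0.086 and 0.16 when a library was left out. It was called lower with library sizes alone (−0.29, edgeR adjusted p = 0.03747) and with DESeq2 (−0.54, adjusted p = 0.0003234). Precision was limited by 2 libraries per group and by 45 mural, 58 neutrophil and 75 macrophage cells in the smallest libraries.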
